A study of Rattus norvegicus with 352 samples.

Results

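Oxidative phosphorylation turns the electrons of nutrients into ATP at the inner mitochondrial membrane, and its nuclear-encoded subunit genes were examined here in whole brain. The genes were chosen by name alone: those beginning with Nduf and a subunit letter, the Sdh genes, and names beginning with Uqcr, Cox followed by 4 to 8, or Atp5, without Ndufa10, Ndufa10l1 and names marked as pseudogenes. The rule found 0.282% of the 38354 genes of the table: 45 belong to complex I, 4 to complex II, 11 to complex III, 21 to complex IV and 27 to complex V. The name rule takes in likely gene copies beside the subunits themselves, and it leaves out subunits with other names as well as the subunits encoded in mitochondrial DNA, which are not analysed here.

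RNA was measured by polyA RNA sequencing in libraries that each came from a frozen whole brain hemisphere of a naive, untreated heterogeneous stock rat, an outbred population bred from several inbred strains. The labels name a single group, brain, and no treatment, age or genotype, so all libraries form 1 group, and every comparison is between rats within it. A library held between 5418230 and 42980793 estimated counts (median 21881769) and between 22962 and 27876 genes above 0. Markers fitting a whole hemisphere were present in every library: the synaptic gene Snap25 lay between 2189 and 2717 CPM, the myelin gene Mbp between 4144 and 7656 CPM and the astrocyte transporter gene Slc1a2 between 2088 and 3229 CPM. Values are CPM, counts scaled to a common library total, and a level is log2(CPM + 1). Because transcript lengths were not at hand, levels are compared between libraries and not between genes.

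Complex I passes electrons from NADH, and complex II from succinate, to ubiquinone. Complex III hands them on to cytochrome c and complex IV to oxygen, and complexes I, III and IV pump protons whose return through complex V, the ATP synthase, drives ATP synthesis. Neurons depend heavily on this pathway for ion pumping and synaptic transmission. Several subunits of complex IV have paralogous genes, known as isoforms, that are used in particular tissues or under low oxygen. So has Ndufa4, which is counted here under complex I by its name. Many of the genes are known targets of the transcription factors NRF1, GABP (an ETS factor), YY1 and ERR alpha.

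The promoters of 7 members are shown because the genes recur below: 1 from each complex that holds letters of these factors, and those of Ndufb4 and Atp5mg, which differed between rats more than most members. Each runs from 250 bases before to 50 bases after the annotated start in the 5′ to 3′ direction of the gene, from RefSeq on the rat assembly GRCr8. Capitals mark GCGCATG (NRF1), CCGGAAG (ETS), AAGATGG (YY1) and AAGGTCA (ERR), searched on both strands.
Ndufa11 (complex I, chr9:1637364-1637663, plus strand): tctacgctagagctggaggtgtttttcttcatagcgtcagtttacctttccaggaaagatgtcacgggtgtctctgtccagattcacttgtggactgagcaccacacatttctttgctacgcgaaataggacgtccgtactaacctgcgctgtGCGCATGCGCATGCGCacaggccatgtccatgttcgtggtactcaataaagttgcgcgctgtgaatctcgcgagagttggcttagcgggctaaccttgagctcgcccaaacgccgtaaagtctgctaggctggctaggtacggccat
Sdhd (complex II, chr8:59850592-59850891, minus strand): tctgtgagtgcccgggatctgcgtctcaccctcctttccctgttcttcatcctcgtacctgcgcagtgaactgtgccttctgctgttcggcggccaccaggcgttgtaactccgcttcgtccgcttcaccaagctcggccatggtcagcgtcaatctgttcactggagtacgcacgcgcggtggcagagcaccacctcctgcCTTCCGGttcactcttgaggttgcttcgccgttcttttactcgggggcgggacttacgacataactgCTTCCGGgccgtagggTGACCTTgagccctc
Uqcrc1 (complex III, chr8:118467973-118468272, plus strand): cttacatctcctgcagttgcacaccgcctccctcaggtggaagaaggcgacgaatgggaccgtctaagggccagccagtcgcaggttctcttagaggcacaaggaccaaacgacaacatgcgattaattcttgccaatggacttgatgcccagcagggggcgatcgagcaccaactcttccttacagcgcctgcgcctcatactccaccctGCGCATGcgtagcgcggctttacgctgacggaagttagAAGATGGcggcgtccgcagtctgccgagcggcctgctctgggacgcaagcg
Cox5b (complex IV, chr9:46417587-46417886, plus strand): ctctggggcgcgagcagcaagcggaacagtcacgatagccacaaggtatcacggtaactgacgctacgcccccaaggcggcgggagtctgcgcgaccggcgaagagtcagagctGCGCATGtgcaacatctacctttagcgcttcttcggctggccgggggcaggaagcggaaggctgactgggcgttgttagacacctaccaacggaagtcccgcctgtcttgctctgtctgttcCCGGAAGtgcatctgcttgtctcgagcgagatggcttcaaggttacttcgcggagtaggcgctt
Atp5f1a (complex V, chr18:73567287-73567586, plus strand): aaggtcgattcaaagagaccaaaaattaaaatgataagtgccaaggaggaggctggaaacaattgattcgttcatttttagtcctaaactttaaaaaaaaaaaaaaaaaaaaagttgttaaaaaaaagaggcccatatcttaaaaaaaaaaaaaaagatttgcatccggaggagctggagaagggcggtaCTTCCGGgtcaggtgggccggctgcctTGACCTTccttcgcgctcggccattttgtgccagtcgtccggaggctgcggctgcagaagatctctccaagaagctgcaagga
Ndufb4 (complex I, chr11:76568928-76569227, plus strand): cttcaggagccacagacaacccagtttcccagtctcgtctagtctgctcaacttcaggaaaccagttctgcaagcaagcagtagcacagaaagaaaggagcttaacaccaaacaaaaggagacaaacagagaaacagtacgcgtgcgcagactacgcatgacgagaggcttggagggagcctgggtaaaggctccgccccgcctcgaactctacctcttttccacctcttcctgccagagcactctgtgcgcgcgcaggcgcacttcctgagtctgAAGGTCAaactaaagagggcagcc
Atp5mg (complex V, chr8:54130358-54130657, minus strand): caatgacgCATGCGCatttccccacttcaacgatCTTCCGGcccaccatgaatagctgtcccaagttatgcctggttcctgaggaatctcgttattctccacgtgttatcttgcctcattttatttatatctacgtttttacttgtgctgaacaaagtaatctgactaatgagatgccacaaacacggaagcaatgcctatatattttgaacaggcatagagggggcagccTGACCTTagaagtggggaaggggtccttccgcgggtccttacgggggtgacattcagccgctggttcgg
In Atp5f1a the ETS letters began 60 bases and the ERR letters 33 bases before the start. In Ndufa11, GCGCATG and its reverse complement overlapped in 1 run of 4 matches. Of 75 tested members with a promoter in the table, 11 (14.7%, exact 95% interval 7.56 to 24.7%) held the NRF1 letters, against 5.37% of the promoters of 16437 tested genes and 3.77% of all 33469 promoters. The ETS letters stood in 21 member promoters (28%, interval 18.2 to 39.6%), against 13.5% of tested genes and 8.75% of all promoters. The YY1 letters stood in 19 (25.3%, interval 15.99 to 36.7%), against 7.43% and 7.01%, and the ERR letters in 12 (16%, interval 8.55 to 26.3%), against 3.34% and 4.61%. All of these shares were higher in member promoters. Other letters differed less: GGGCGG (Sp1) stood in 40% of member promoters, against 52.2% of those of tested genes and 33.1% of all promoters, CCAAT (NFY) in 32%, against 36.6% and 37.5%, and TATAA in 20%, against 16.6% and 26.2%. In a window of only the 200 bases before the start, which is shorter and leaves out the bases after the start, the YY1 letters stood in 5.33% of member promoters, against 3.59% of all promoters, and the ERR letters in 8.0%, against 3.09%.

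Together these genes took up a median of 0.923% of a library's counts, from 0.772% to 1.0796%. The 84 members with a mean level of at least 1 are called tested below. They comprised 38 of complex I, 4 of complex II, 8 of complex III, 15 of complex IV and 19 of complex V. Complex V held the largest summed share, with a median of 0.340% of the counts (0.298 to 0.394%), and complex I 0.270% (0.220 to 0.321%). Complex IV held 0.163% (0.122 to 0.195%), complex III 0.0910% (0.0762 to 0.105%) and complex II 0.0588% (0.0537 to 0.0644%). Over the libraries, complex V took between 34.6% and 38.5% of the members' counts, complex I between 28.5% and 30.9%, complex IV between 15.8% and 18.6%, complex III between 9.46% and 10.2% and complex II between 5.84% and 7.27%. The ends 38.5%, 28.5%, 15.8% and 7.27% were all those of the library brain 86 described below. A median member differed 1.24-fold between the 5th and 95th percentiles of the libraries, and the median ratio of a member's SD to the trend of SD with level over all genes was 1.03.

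**Figure D1:**
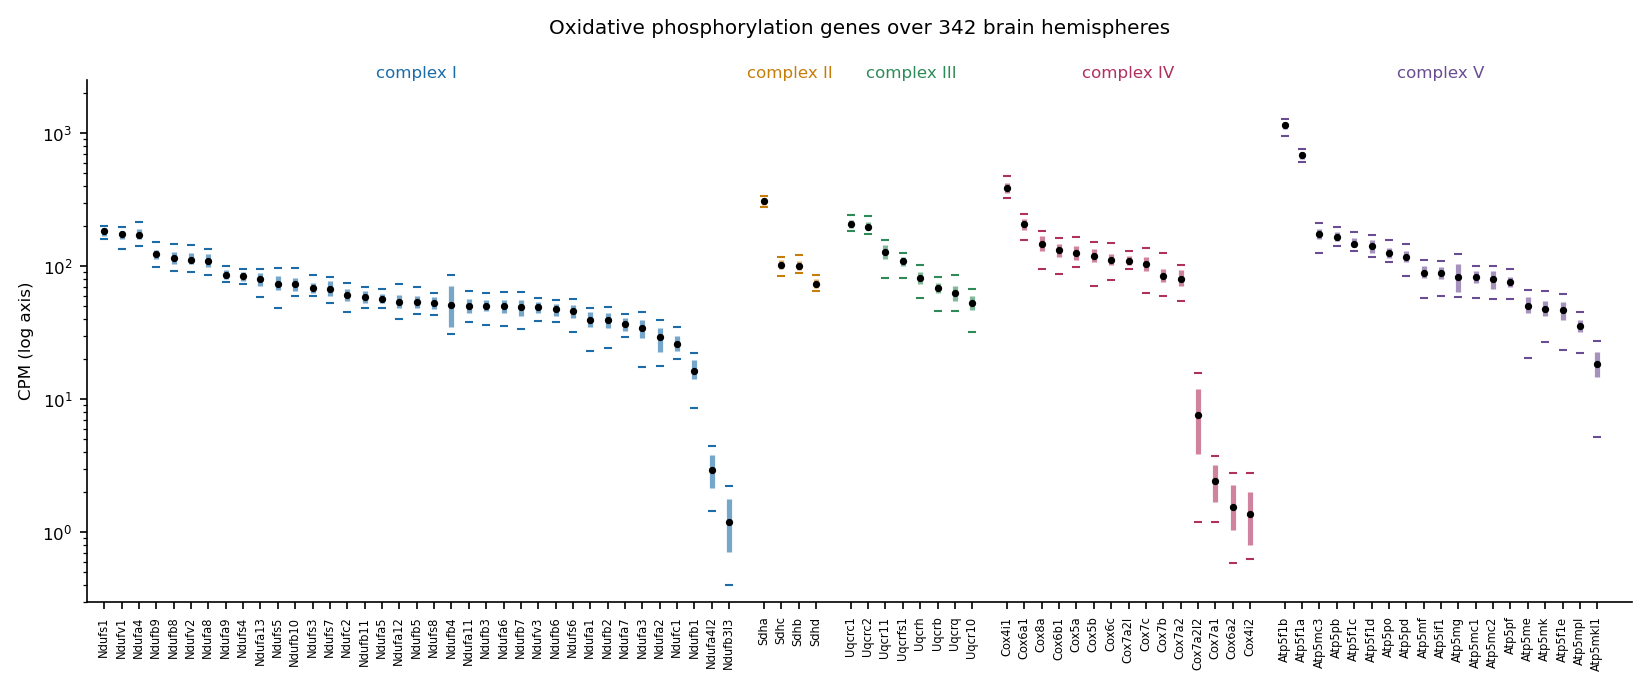
CPM on a log axis of the tested members (1 of the 84 is not shown), ordered by median within its complex; points are medians, bars the 5th to 95th percentiles and dashes the lowest and highest of all libraries. Most bars are short, at a median of 1.24-fold, while Ndufb4, Cox7a2l2 and Atp5mg have long ones.

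In complex I, 5 of the 7 core subunits that carry the electron path varied less than the trend. Ndufs1, the largest iron-sulphur subunit, lay between 160.1 and 200.999 CPM (median 182.98) and Ndufv1, which binds NADH and flavin, between 135.9 and 196.2 CPM (median 174.1). The 7 core genes had a median SD of 0.82 times the trend and a median 1.18-fold range between percentiles, against 1.04 times and 1.25-fold for the 31 other tested genes of the complex. The core genes above the trend were Ndufs7 (1.26 times, 1.29-fold) and Ndufv2 (1.03 times), both iron-sulphur subunits. The largest spreads were those of Ndufb4 (3.49 times) and Ndufa2 (1.66 times), both accessory subunits. Ndufa2 lay between 17.88 and 39.8 CPM, with a median of 29.4 CPM.

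In complex II, which also serves the citric acid cycle, all 4 subunits lay below the trend. Sdha, the flavin subunit, was between 276.9 and 336.9 CPM (median 308.7) at 0.68 times the trend, the smallest spread of the complex. Sdhb, the iron-sulphur subunit, lay between 88.3 and 120.7 CPM (median 101.2) and Sdhc, a membrane anchor, between 84.7 and 117.4 CPM (median 102.98), with the largest spreads at 0.86 and 0.83 times. The other anchor, Sdhd, had a median of 73.4 CPM. The complex as a whole had a median range of 1.17-fold.

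In complex III, the core proteins Uqcrc1 (183.1 to 242.2 CPM, median 208.2) and Uqcrc2 (176.2 to 237.2 CPM, median 198.7) and the Rieske iron-sulphur protein Uqcrfs1 (82.2 to 125.9 CPM, median 110.04) varied least, between 0.81 and 0.85 times the trend. The small subunits varied more. Uqcr11 (81.1 to 157.8 CPM, median 127.4) lay at 1.37 times and Uqcrq (45.98 to 85.4 CPM, median 62.5) at 1.24 times, and the 5 genes outside the core had a median of 1.23 times.

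In complex IV, the nuclear subunits surround a core encoded in mitochondrial DNA. Cox4i1, a regulatory subunit, lay between 328.6 and 478.9 CPM (median 389.9), Cox6a1 between 157.5 and 248.4 CPM (median 207.8) and Cox8a between 96.04 and 185.05 CPM (median 147.4). Cox8a, at 1.43 times the trend, and the likely copy Cox7a2l2, at 2.45 times, had the largest spreads, and Cox7a2l, known as a factor of respiratory supercomplexes, the smallest (0.82 times, 96.2 to 130.001 CPM).

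In complex V, the catalytic beta subunit Atp5f1b lay between 949 and 1288 CPM (median 1146) and the alpha subunit Atp5f1a between 612 and 760 CPM (median 682), which at 0.72 times the trend had the smallest spread. Atp5mc3, 1 of 3 genes known to encode the same mature ring subunit c, lay between 126.6 and 212.04 CPM (median 176.3). Its sisters Atp5mc1 (57.3 to 101.3 CPM, median 82.4) and Atp5mc2 (56.8 to 101.3 CPM, median 80.1) spread 1.12 and 1.61 times the trend, against 0.96 times for Atp5mc3. Atp5mg, a small subunit of the membrane part, had the largest spread of the complex at 2.57 times. Over complexes I, II, III and V, 16 of 22 core genes but 19 of 47 other tested genes lay below the trend. The share of all tested genes below the trend is not given here. Counts below it therefore compare members with each other only.

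A further 24 members had a mean level under 1 and were not tested. They are the complex IV genes Cox6b2, Cox7b2 and Cox8c, known from testis, and Cox8b, known from heart and skeletal muscle, together with genes whose names mark them as relatives of a subunit: Ndufb11b, Ndufb3l1, Ndufb3l2, Ndufb4l1, Ndufb4l3, Ndufb4l4, Ndufb4l5, Uqcr11l1, Uqcrbl1, Uqcrbl2, Cox5bl1, Cox7cl1, Atp5mc1l1, Atp5mc1l2, Atp5mc2l1, Atp5mc2l2, Atp5mgl1, Atp5mgl3, Atp5mgl4 and Atp5pdl1. Their highest medians were 0.761 CPM for Cox6b2 and 0.572 CPM for Cox8b, which was above 0 in every library. Atp5mc2l1 reached 1.55 CPM in 1 library at a median of 0.383 CPM. Uqcrbl2 was listed at 0 in every library.

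Levels of the members varied together from rat to rat, and they did so across complexes as much as within them. The mean Pearson r over all 3486 pairs of tested members was 0.3997, with a mean of 0.394 over the 1013 pairs within a complex and of 0.402 over the 2473 pairs between complexes. Over all pairs of tested genes of the table the mean r was 0.0133. These r describe libraries that share their preparation and scaling, and genes are not independent of each other. The highest was Ndufa4 with Cox7b (r = 0.81), followed by Cox6a1 with Cox4i1 (0.81) and by Cox6b1 with Uqcr10, a small subunit of complex III (0.81). Pairs of Ndufa4 are counted under complex I, by its name, although it has since been described as a subunit of complex IV. Mean z values of whole complexes had an r of 0.96 between I and V, 0.95 between I and III and 0.93 between I and IV. Complex II stood lowest, at 0.75 with I, 0.74 with V, 0.70 with III and 0.63 with IV. Its mean z rests on 4 genes, against 8 to 38 in the other complexes. Mean r of single pairs set it less apart: 0.36 between II and I, 0.38 with III, 0.38 with V and 0.29 with IV, against 0.37 between I and IV. A single component held 45.04% of the members' variance and the next one 7.35%.

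**Figure D2:**
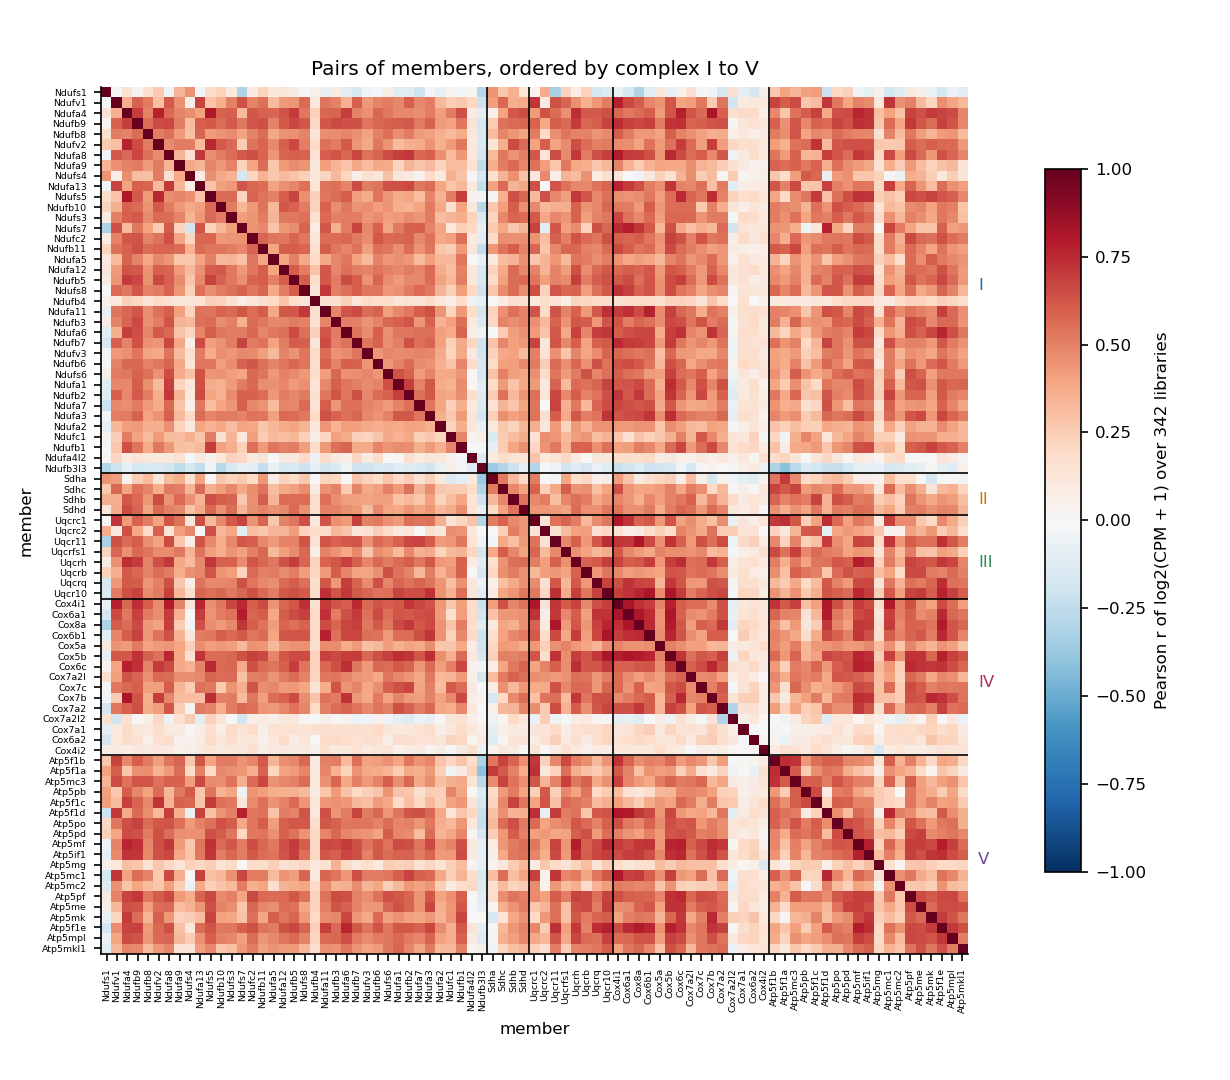
Pearson r over all libraries of the levels of each pair of tested members (1 of the 84 is not shown), ordered by complex with black lines between complexes, both axes naming the members. The colour is much the same inside and outside the blocks on the diagonal (mean r 0.394 and 0.402), and pale stripes mark members such as Ndufb3l3, Ndufs1, Ndufb4, Cox7a2l2 and Atp5mg.

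For 69 of the 84 members, r with the mean z of the other members was over 0.5. The median of this r was 0.69 over the members, while r with the members' mean z had a median of -0.01 over all tested genes. How many of all tested genes passed 0.5 is not given here. Cox5b (0.87), Atp5mf (0.85), Ndufb9 (0.84) and Cox4i1 (0.84) followed the rest most closely. Among members that did not, Ndufs1 stood out as a core subunit (r = 0.07), and its levels ran against those of Uqcr11 (r = -0.32) and Cox8a (-0.30). Sdha (0.28) and the accessory subunit Ndufs4 (0.36), mutated in a form of Leigh syndrome, were also loosely tied, as was Uqcrc2 (0.42). In complex III the lowest mean r within the complex were those of Uqcrc2 (0.26) and Uqcrfs1 (0.42), and in complex II those of Sdha (0.35) and Sdhd (0.38). The second component had Uqcrc2 (r = 0.69), Ndufs4 (0.65), Atp5pb (0.57), a peripheral stalk subunit, and Ndufs1 (0.54) at one end and Ndufs7 (-0.60) and Atp5f1d (-0.53) at the other. The likely copy Ndufb3l3 was the only member with a negative r to the first component and ran against the others (r = -0.22).

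Among genes outside the list with the highest r to the mean z of the members were Fau (0.89), encoding a ribosomal protein fused to a ubiquitin-like one, Ppia (0.88), encoding cyclophilin A, and the ribosomal protein genes Rpl37a (0.86) and Rpl27a (0.83). The lowest were Huwe1 (-0.78), a ubiquitin ligase gene, Cacna1e (-0.77), a calcium channel gene, Bltp1 (-0.75), Scn8a (-0.75), a sodium channel gene, and Zbtb20 (-0.75). The most similar genes were compact, at 1600 bases of genome for Fau and 5662 for Ppia, and the most opposed were long, at 130091 bases for Huwe1 and 739030 for Zbtb20. In the fifth of tested genes with the shortest genomic span the median r with the members was 0.13 and 73.2% were positive, and in the fifth with the longest span the median was -0.17 and 22.4% were positive. Spearman's rho between span and r was -0.45 over 16594 other genes and -0.25 over the 84 members, whose median span was 7128.5 bases. The members' mean z also had an r of 0.81 with the second principal component of all tested genes, and removal of the first 10 components left a mean r of 0.131 between members. What the shared component reflects was not tested.

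Other mitochondrial gene lists followed the members to different degrees. Median r with the members' mean z was 0.51 for 10 nucleotide carriers, porins and uncouplers, 0.49 for 6 subunits with other names, 0.45 for 74 mitochondrial ribosomal protein genes and 0.44 for 23 import genes, and it was 0.28 for 18 genes of the citric acid cycle and pyruvate dehydrogenase and 0.22 for 47 assembly factor genes. Over all tested genes the median was -0.01. The carrier subunit Ndufab1 (0.80) and the ATP/ADP carrier Slc25a4 (0.76) were high, while Dlat, a pyruvate dehydrogenase subunit, was negative (-0.44). The 12 biogenesis regulators had a median of -0.04, with Ppargc1a at -0.35 and Ppargc1b at -0.40, both coactivators known to drive mitochondrial biogenesis, and Twnk, the mitochondrial helicase, at 0.44. For 16 glycolysis genes the median was 0.36, with Tpi1 at 0.73 and Hk1 at -0.13.

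Levels of many members moved with marker scores of the cell makeup of the hemisphere, as did those of many other genes. In bulk tissue, fewer cells of a type and less RNA per cell cannot be told apart. Slopes are changes in level per SD of the marker score, tested with limma's moderated test and Benjamini-Hochberg adjustment over all 16683 tested genes. With the oligodendrocyte score, 64 of 84 members were higher and 1 was lower, while 22.6% of all tested genes were called higher and 32.9% lower. All complexes took part, with 30 of 38 members of complex I, 4 of 4 of II, 6 of 8 of III, 8 of 15 of IV and 16 of 19 of V higher. The steepest were Ndufa3 (slope 0.036 ± 0.0073 SE, adjusted p = 4.91e-06), Cox4i2 (0.033 ± 0.012, adjusted p = 0.0119) and Ndufa11 (0.032 ± 0.0056, adjusted p = 2.16e-07), and the likely copy Ndufb3l3 was the one that was lower (-0.050 ± 0.012, adjusted p = 0.000186).

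With the general neuronal score, 44 members were higher and 4 lower, against 25.3% of all tested genes called higher and 38.9% lower. In all, 17 of 22 core genes and 20 of 47 other genes of complexes I, II, III and V were higher, and Ndufs1 (0.035 ± 0.0029, limma adjusted p = 4.07e-27) and Ndufb10 (0.035 ± 0.0050, adjusted p = 9.95e-11) were among the steepest, beside Cox7a2l2 (0.053 ± 0.022, adjusted p = 0.0304). Ndufb3l3 (-0.091 ± 0.011), Cox6a2 (-0.026 ± 0.011) and Ndufc1 (-0.016 ± 0.0059), an accessory subunit of complex I, were lower, the last with limma adjusted p = 0.0125. With all 6 covariates in 1 fit the slopes of Cox6a2 (0.014) and Ndufc1 (0.010) turned positive. With Meg3, a noncoding RNA kept in the nucleus and used here as an index of nuclear RNA, 9 members were higher and 48 lower, while 43% of all tested genes were higher and 30.1% lower. The steepest falls were those of Atp5f1a (-0.037 ± 0.0021, limma adjusted p = 5.37e-49), Sdha (-0.036 ± 0.0021, adjusted p = 1.54e-45) and Ndufb10 (-0.035 ± 0.0050), and the steepest rises those of Ndufb3l3 (0.11 ± 0.011), Cox6a2 (0.040 ± 0.011) and Cox7a1 (0.029 ± 0.011, adjusted p = 0.0126). Of the core genes, 19 of 22 were lower with Meg3, against 22 of 47 others.

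Astrocyte and cerebellar scores divided the members. With the astrocyte score 12 were higher and 25 lower, against 25.8% of all tested genes higher and 41.8% lower. Sdha (0.028 ± 0.0024, limma adjusted p = 1.57e-24), Ndufs1 (0.026 ± 0.0032) and Atp5f1a (0.020 ± 0.0027) were higher and Ndufb3l3 (-0.077 ± 0.012), Cox6a2 (-0.052 ± 0.011) and Cox7a1 (-0.041 ± 0.011) lower. This split turned on the fit: 41 were higher and 10 lower with median ratio scaling (40.04% and 32.7% of all genes), and 0 were higher (1 at an unadjusted p under 0.05) and 62 lower in limma with all 6 covariates in 1 fit (12.9% and 18.9% of all genes), where Atp5f1a had a slope of -0.0096. With the cerebellar score 11 members were higher and 11 lower, against 18.5% and 30.4% of all tested genes. Ndufs1 (0.024 ± 0.0032), Atp5f1a (0.018 ± 0.0027) and Sdha (0.016 ± 0.0027) were higher, and Ndufb3l3 (-0.042 ± 0.012), Cox6a2 (-0.032 ± 0.011) and Atp5mk (-0.028 ± 0.0068), a small ATP synthase subunit, lower. The cerebellar counts were 21 higher and 6 lower with median ratio scaling (27.4% and 26.1% of all genes) and 1 higher and 5 lower with all 6 covariates, where Ndufb3l3 had a slope of 0.0022, and 6 were lower with block means removed. For the cerebellar score with all 6 covariates or with block means removed, the share of all genes called is not given here. Median ratio scaling also changed the split of all genes for Meg3, to 32.9% higher and 44.4% lower, and for the neuronal score, to 42.5% and 31.1%. Members were then 3 higher and 66 lower with Meg3, and 64 higher and 3 lower with the neuronal score.

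In the other pathways of energy metabolism the called slopes had mostly the same direction as in the core genes. With the neuronal score, 15 of 18 citric acid cycle genes and 12 of 16 glycolysis genes were higher and 1 of each was lower, and with Meg3, 16 and 14 were lower. Eno2 is among the 16 glycolysis genes and is also a marker in the neuronal score, so its own slope on that score is no result. Mitochondrial ribosomal protein genes were higher with the neuronal score in 28 and lower in 5 of 74, and assembly factors in 10 and 11 of 47. Slopes on library depth passed the test in no member. With log2 of the library total, limma called 0 members higher and 0 lower (0.198% and 0.294% of all tested genes), while 26 of 84 members and 2968 of 16683 genes had an unadjusted p under 0.05.

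The isoform genes were read against markers of the cells they are known from. Cox4i2, the low-oxygen isoform of Cox4i1, lay between 0.629 and 2.82 CPM (median 1.36), and Ndufa4l2, a relative of Ndufa4 known from pericytes, between 1.45 and 4.47 CPM (median 2.92). Both rose with a score of 7 pericyte markers. For Ndufa4l2, r was 0.40 and rho 0.40 (permutation p = 1e-05 each, the smallest that 100000 permutations can give, adjusted p = 5e-05 over 10 relations), and within the 7 blocks of libraries with like identifiers r was positive in 6 and ranged from -0.24 to 0.50. For Cox4i2, r was 0.24 and rho 0.23 (permutation p = 1e-05 each, adjusted p = 5e-05), positive in 7 of 7 blocks (0.12 to 0.53). Without the 2 libraries farthest from the median score, r was 0.40 for Ndufa4l2 and 0.26 for Cox4i2. All 7 pericyte markers had a positive r with both genes, Rgs5 the highest with Ndufa4l2 (0.34) and Vtn with Cox4i2 (0.23). The common forms did not pass the test as first fitted: Cox4i1 had an r of -0.01 (permutation p = 0.884, adjusted p = 0.924) and Ndufa4 of -0.10 (permutation p = 0.0665, adjusted p = 0.111). With block means removed, r of Ndufa4 was -0.13 and passed the threshold. Ndufa4 lay between 141.2 and 216.3 CPM (median 171.8). It is listed under complex I by its name and has since been described as a subunit of complex IV. Some smooth muscle markers had r of similar or larger size. Acta2 had an r of 0.38 with Ndufa4l2 and 0.25 with Cox4i2, above every pericyte marker. Tagln had an r of 0.34 with Ndufa4l2, and the smooth muscle markers other than Acta2 lay below the highest pericyte marker. Neither gene was tested against the smooth muscle score.

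Cox7a1 (1.20 to 3.77 CPM, median 2.44) and Cox6a2 (0.592 to 2.80 CPM, median 1.56) are the forms of heart and skeletal muscle. Cox7a1 had an r of 0.01 with a smooth muscle score (permutation p = 0.924, adjusted p = 0.924) and its common form Cox7a2 (54.5 to 101.8 CPM, median 80.9) of 0.01 (permutation p = 0.784). Cox6a2, also described in fast-spiking interneurons of mice, was lower where the score of 5 interneuron markers was higher (r = -0.18, rho = -0.20, permutation p = 0.00071 and 0.00029, adjusted p = 0.00177 and 0.000725), with a positive r in 1 of 7 blocks. Its r was -0.29 with Syt2 and -0.20 with Gad1, but -0.01 with the defining marker Pvalb, -0.01 with Kcnc2 and 0.10 with Lhx6. Cox6a1 had an r of -0.25 and a rho of -0.26 with the same score (permutation p = 4e-05 and 2e-05, adjusted p = 0.000133 and 6.67e-05), which was -0.01 with median ratio scaling. With skeletal muscle markers, Cox6a2 had an r of 0.12 and a rho of 0.17 (permutation p = 0.0247 and 0.00119, adjusted p = 0.0494 and 0.00238), and the adjusted p of r was 0.0529 without the library brain 86 described below, while Cox6a1 had an r of -0.03 (permutation p = 0.518). Of the 5 muscle markers, Ckm (median 0.112 CPM) and Mb (0.0544 CPM) were near 0, and Acta1 (10.07 CPM), Myh7 (6.80 CPM) and Ttn (5.27 CPM) were not. Of the other paired forms, Cox6b1 lay between 87.9 and 164.2 CPM (median 132.7) and Cox7b between 60.1 and 126.1 CPM (median 84.3), while Cox6b2 and Cox7b2 were not tested.

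**Figure D3:**
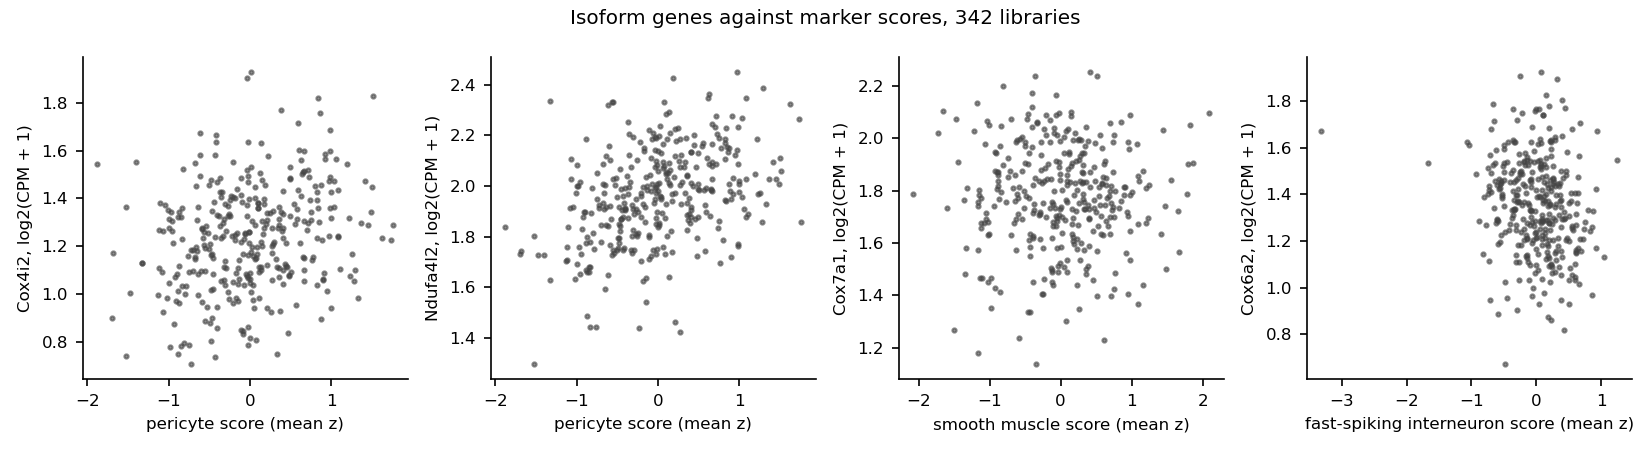
Levels, log2(CPM + 1), of 4 isoform genes against marker scores (mean z), 1 point for each library. Ndufa4l2 (r = 0.40) and Cox4i2 (r = 0.24) rise with the pericyte score, Cox7a1 has no slope on the smooth muscle score (r = 0.01), and Cox6a2 falls weakly with the interneuron score (r = -0.18), where 1 library lies far to the left.

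A few members differed between rats far more than the rest. An SD at least 2 times the trend was found in 3 of 84 members, against 5.14% of all tested genes. The count was 3 under each of the 7 alternatives tried. Ndufb4 (chr11:76569178-76575879), an accessory subunit of the membrane arm of complex I, lay between 31.1 and 86.2 CPM with a median of 51.3 CPM. Its libraries fell into 3 clumps: most lay between 30 and 44 CPM, between 48 and 62 CPM or, in 48 libraries, between 66 and 90 CPM, with 4 in each of the gaps between them. A fit of 3 levels placed them at 5.29, 5.80 and 6.16 on the log2 scale, holding 44.7%, 40.3% and 14.96% of the libraries and at least 3.87 SD apart. Separate levels were called at 4 SD, a rule met by 0 members and by 0.821% of all tested genes. Ndufb4 met it once the first 10 principal components were removed, with levels of 5.31, 5.81 and 6.16 holding 45.6%, 41.4% and 13%. No other tested member did. The share of all tested genes that met the rule after removal is not given here.

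Among the 5 genes most like Ndufb4 after removal of these components were 4 neighbours within 3 Mb of it on chromosome 11, which carries 2.64% of the tested genes. They were chosen after their values were seen. B4galt4, a galactosyltransferase gene 1042 kb away, ran opposite to it (r = -0.49), as did Polq (-0.43), a DNA polymerase gene at 603 kb, and Slc15a2 (-0.41), a peptide transporter gene at 944 kb, while Lsamp (0.44), a neuronal adhesion gene, ran with it. Before removal, r over all libraries was -0.44 with B4galt4, -0.42 with Polq, -0.34 with Slc15a2 and 0.11 with Lsamp. On the same values, r inside the 3 levels of Ndufb4 was 0.20, 0.02 and 0.09 with B4galt4. It was -0.15, -0.13 and 0.12 with Polq, -0.09, -0.04 and 0.10 with Slc15a2, and -0.31, -0.09 and -0.05 with Lsamp. The levels were cut on the values of Ndufb4 itself, which narrows its range and can lower r. Its 4 named copies reached 0.564 CPM together at most, and the SD of the summed level was 0.34, as for Ndufb4 alone.

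Atp5mg (chr8:54122457-54130407) lay between 58.4 and 123.1 CPM, with a median of 83.2 CPM. A fit of 3 levels to it alone left them 3.28 SD apart, but its difference from the ribosomal protein gene Rps25, 490 kb away, fell into 3 levels at -0.62, 0.05 and 0.84 on the log2 scale, at least 7.71 SD apart. They held 31.9%, 48.8% and 19.3% of the libraries. From the first level to the third, the median of Atp5mg rose from 67.8 to 101.4 CPM and that of Rps25 fell from 105.9 to 55.95 CPM. These levels belong to the difference and not to Atp5mg alone. Over all libraries, components removed, Atp5mg ran opposite to Rps25 (-0.85). Rps25 was chosen after its values were seen, so some separation of the difference was built in. It was the second most like of the 5 genes nearest in pattern. The others were Rps25-ps11 (0.87), named as a pseudogene of Rps25 and placed on chromosome 3, and 3 neighbours on chromosome 8: Scn2b (0.82), a sodium channel gene at 191.98 kb, Il10ra (0.74), a cytokine receptor gene at 329.3 kb, and Phldb1 (-0.61) at 174.1 kb. Before removal of the components, r for Scn2b was 0.63 over all libraries and 0.21, 0.12 and -0.09 inside the levels. Because reads of Rps25 and its pseudogene may be assigned to either, the values of Rps25-ps11 (0.628 to 7.27 CPM) are uncertain.

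Cox7a2l2 (chr14:55514223-55514681), whose 459 bases and name mark it as a likely copy of Cox7a2, lay between 1.19 and 15.8 CPM with a median of 7.66 CPM, and its values formed 1 clump. The gene most like it after removal of the components was Cox7a2 itself, on chromosome 8, which ran opposite to it (r = -0.48; -0.29 before removal). The sum of the pair had an SD of 0.10, against 0.12 for Cox7a2 and 0.42 for Cox7a2l2. Reads that fit both genes could be assigned to either, so the values of this pair are uncertain. Ndufb3l3 (0.399 to 2.24 CPM) had an r of -0.14 with Ndufb3, and Atp5mkl1 (5.20 to 27.7 CPM) of 0.53 with Atp5mk.

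**Figure D4:**
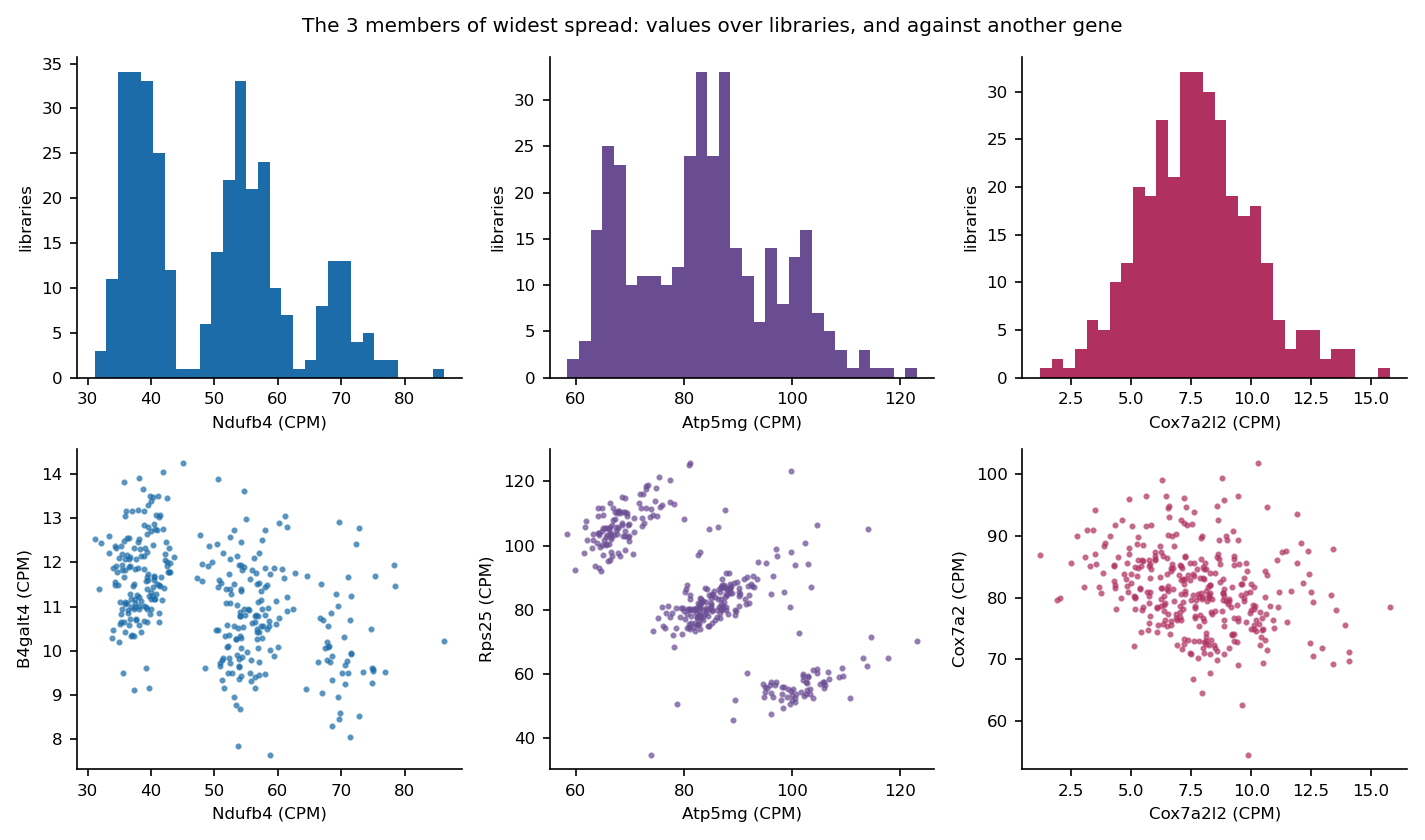
Upper panels give the number of libraries by CPM for Ndufb4, Atp5mg and Cox7a2l2, and lower panels plot each against another gene, B4galt4, Rps25 and Cox7a2, in CPM with 1 point per library. Ndufb4 shows 3 clumps near 38.2, 54.3 and 70.3 CPM, Atp5mg and Rps25 form 3 rising bands, and Cox7a2l2 forms 1 clump.

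A nearby gene was the most like one for 11 of 84 members (13.1%), within 5 Mb and after removal of the components, against 26.2% of the 16683 tested genes. Besides Ndufb4, examples were Ndufa2 with the protocadherin gene Pcdhb5 on chromosome 18 (r = 0.72, 671 kb), Atp5mc2 with Prr13 on chromosome 7 (-0.64, 195.5 kb) and Ndufb7 with the adjacent Tecr on chromosome 19 (-0.58). For 30 of 84 members the most like gene was another member, as for Cox6b1 and Uqcr10 (0.60) or Cox5b and Atp5me (0.63). Among all 16683 tested genes, the share whose most like gene was a member was far smaller.

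Libraries whose identifiers start with the same 6 characters formed 7 blocks of at least 8 libraries, the only grouping visible in the labels. By limma's moderated F-test 6 of 84 members differed between blocks, against 8.21% of all tested genes. They were Cox7b (F = 4.47, adjusted p = 0.00968), Ndufa4 (F = 4.28, adjusted p = 0.0129), Ndufc1 (F = 3.83, adjusted p = 0.0239), Ndufv2 (F = 3.45, adjusted p = 0.0389), Uqcrh (F = 3.34, adjusted p = 0.0447) and Atp5pb (F = 3.28, adjusted p = 0.0479). Their share is close to that of all genes, and 1 was called with median ratio scaling. Without the 5% of libraries with fewest genes limma called 0 (14 at an unadjusted p under 0.05), while 8 were called without brain 86. For these alternatives the share of all tested genes called is not given here. Block medians of Ndufb4 ran from 37.9 to 53.4 CPM, which did not pass the test (limma adjusted p = 0.293).

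The library brain 86 stood apart in this pathway. The mean z of the 84 members was -3.55 there, against -1.57 in the next lowest library and 2.41 in the highest. In it 61 of 84 members lay more than 2 SD below their mean, against 4.59% of all tested genes. It was the lowest library for 49 members, a count for which no share of all tested genes is given here. Atp5me, the e subunit of the ATP synthase, lay at 20.5 CPM, against a median of 50.3 CPM, and Cox5b at 70.8 CPM, against 120 CPM. Some core subunits were near their mean: Sdha lay 0.01 SD above its mean, Ndufs1 0.07 SD and Atp5f1a 0.32 SD below. The median ratio to the median library was 0.90 for the 22 core genes and 0.74 for the 47 others of complexes I, II, III and V. Over the members, rho between genomic span and z in brain 86 was 0.45. Some ribosomal protein genes outside the list were low there too, such as Rps28 (21.9 CPM, against a median of 47.02) and Rpl38 (22.4 CPM, against 49.5). Over all tested genes the median z in it was 0.13. The library was deep, with 39872269 counts, and had the most genes above 0 of all (27876). Neuronal, oligodendrocyte and astrocyte markers summed to 7462, 6199 and 6555 CPM in it, within the range of the other libraries, while the pituitary hormone gene Pomc was at 77.9 CPM, against a median of 2.69 CPM. The part of these measures in its low values was not tested. Without brain 86 the mean r over pairs of members was 0.385 (0.378 within and 0.388 between complexes), and 62 members were higher and 1 lower with the oligodendrocyte score. The share of all tested genes called without brain 86 is not given here.

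**Figure D5:**
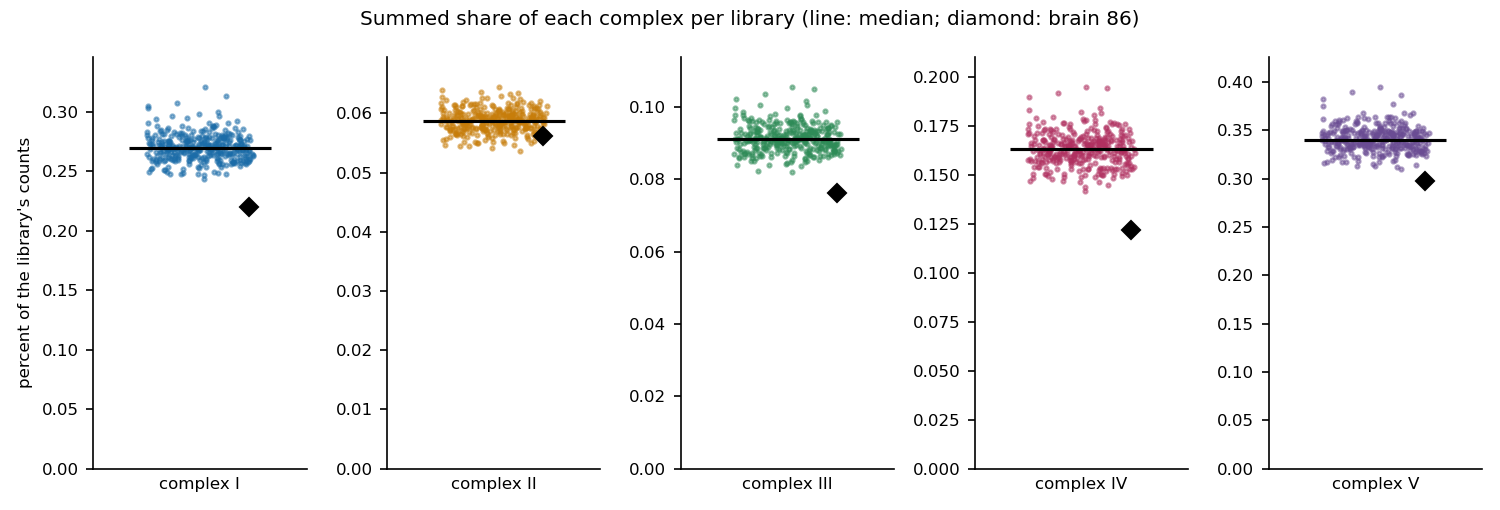
Summed share of each complex as a percent of the library's counts, from 0 up, 1 point for each library, spread sideways at random, with a line at the median and a diamond for brain 86. The diamond is lowest in complexes I, III, IV and V (0.220, 0.0762, 0.122 and 0.298%) and within the cloud in complex II (0.0561%).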

How the data were processed

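RNA was measured in 342 brain hemispheres, and the rule found 108 members among 38354 genes. The deposited table holds log2 values, taken as log2 of an estimated count plus 1 and undone accordingly. Per the submitters' processing notes reads were quantified with kallisto (version not given in the sources used here), and a deposited value is not scaled for depth. Counts were rescaled to CPM per library and logged after adding 1. The labels name 352 samples, of which 10 are not analysed here and 14 were renamed to correct a mix-up. Nothing in the labels says which samples share a litter or preparation. The p-values treat the libraries as independent, which could not be checked.

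The 16683 genes whose level averaged 1 or more entered tests with limma 3.58.1 (R 4.3.3, mean-variance trend) and Benjamini-Hochberg adjustment at 0.05. The step was checked on simulated data. The trend of SD on level is a lowess fit; separate levels need neighbouring means at least 4 SD apart in Gaussian mixtures of up to 3 components, a drop of over 10 in the Bayesian information criterion and at least 5% of libraries each. Isoform relations used 100000 two-sided permutations. Scores are mean z values of marker genes. Genes and promoters come from RefSeq tables on GRCr8, in which all 108 members matched by symbol. Genomic span is the length of a gene with its introns. Coding lengths and proteins were not used here, so the planned split by coding length was not made.

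Members and lists were chosen with earlier results of these data known. Genes were named by rule: per complex the 3 most abundant, the 2 most and the 1 least variable genes and the 2 with lowest mean r, the isoforms, the untested members, the 5 of largest F and the steepest 3 slopes each way. Other genes were named after their values were seen, those most like Ndufb4, Atp5mg and Cox7a2l2 and all values of brain 86 among them. Alternatives were a pseudocount of 0.1, median ratio scaling, other level minimums, libraries left out, blocks removed and covariates added. Results of 3 genes are not reported here.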

Additional observations from a re-analysis of the deposited data

How the results depend on the processing

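No paired analysis was possible because the labels name a single group. Over all alternatives, of values that answer a comparison 28 moved, 5 reversed, 3 lost and 1 gained significance, and the others kept direction and call. Of values of single named members, 29 lost significance, 11 of them with all 6 covariates in 1 fit, and 4 reversed, each in that fit: on the neuronal score Cox6a2 (slope 0.014) and Ndufc1 (0.010), on the astrocyte score Atp5f1a (-0.0096) and on the cerebellar score Ndufb3l3 (0.0022). The cause was not tested.

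With median ratio scaling, 1 member differed between blocks, 3 were higher with Meg3, 41 were higher and 10 lower with the astrocyte score, 21 were higher and 6 lower with the cerebellar score, the share of complex II was 0.0567%, and r was 0.0583 for Cox4i1 with pericytes, -0.0068 for Cox6a1 with interneurons and 0.0933 for Cox6a2 with skeletal muscle. With all 6 covariates in 1 fit, 1 was lower with the neuronal and 0 with the oligodendrocyte score (0 unadjusted), 0 were higher (1 unadjusted) and 62 lower with the astrocyte score, and 1 was higher and 5 lower with the cerebellar score. With block means removed, 2 were lower with the neuronal and 6 with the cerebellar score, and r was -0.13 for Ndufa4 with pericytes, now past the threshold, -0.0211 for Cox7a1 and -0.0155 for Cox7a2 with smooth muscle. At a level minimum of 3, 2 were lower with the neuronal and 0 with the oligodendrocyte score (0 at an unadjusted p under 0.05 in limma), where fewer members were tested. With no level minimum, 3 differed between blocks, 2 were lower with the oligodendrocyte score and 7 untested copies fell into separate levels. Without the 5% of libraries with fewest genes, 0 differed between blocks in limma (14 at an unadjusted p under 0.05) and r for Cox7a2 with smooth muscle was -0.0073. With library total and Meg3 in the fit, 3 differed between blocks. Without brain 86, chosen after its values were seen, r was 0.01 for Cox4i1 with pericytes and 0.12 for Cox6a2 with skeletal muscle. With the first 10 components removed, mean r over member pairs was 0.131 (0.126 within and 0.134 between complexes) and 1 member, Ndufb4, had separate levels. With 200 bases before the start, 5.33% of member promoters held the YY1 and 8.0% the ERR letters. Except where a share of all genes is stated further above, these counts have no such share beside them. They therefore compare settings, and not members with all genes. Low genes rest on few counts in the smallest libraries. A split by coding length was not run.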
